A study of Homo sapiens with 30 samples.

Results

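PIK3R1, AXIN1, EFNA4, and FBXO34 are 4 of the 26228 genes with FPKM values (mapped fragments scaled to transcript length and library size) in this RNA-Seq table, and 4 of the 11575 tested, which averaged 1 FPKM or more across the libraries. They were chosen by the size of their fall in FPKM with the CDK inhibitor CYC065, which was among the greatest in all 4 MYCN-expressing lines. Those falls are therefore given as a description, with no test. The parental libraries were not used in that choice, and CYC065 in parental cells is the only comparison in which the 4 genes were tested. The spread in that test was estimated from all 30 libraries, those of the MYCN lines included.

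SH-EP is an established human neuroblastoma (NB) cell line that the study describes as mesenchymal, without MYCN amplification or expression. The study derived 4 lines from it by stable retroviral expression of WT, T58A, S62A, or T58A S62A MYCN, so MYCN in these lines is under an exogenous promoter, and the sources used here do not say whether each line is 1 clone. Each of the 5 lines was grown in DMEM with FBS and received either DMSO, the solvent, or 1 μM CYC065 for 6 hours. There were 3 libraries per line and treatment and 30 in all, here lettered a to c in the order of the table, and nothing states that they came from separate cultures, so p-values measure only the spread between these libraries. MYCN was listed at 0 in all 6 SH-EP libraries. In the MYCN-line libraries, it lay between 5.08 FPKM (S62A in DMSO) and 20.1 FPKM (T58A S62A with CYC065) as deposited. In DMSO, the 6 mesenchymal markers checked lay between 4.64 FPKM (SNAI2 in T58A S62A) and 2540 FPKM (VIM in SH-EP). Of 7 adrenergic markers, 4 were under 1 FPKM in every DMSO library and PHOX2A was listed at 0 throughout. The others were ISL1 (0.552 to 2.01 FPKM), GATA3 (2.82 to 9.45 FPKM), and HAND2 (44.1 to 89.3 FPKM).

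The 4 genes belong to different systems. PIK3R1 encodes p85α, a regulatory subunit of class IA phosphoinositide 3-kinase (PI3K), which binds and stabilises the p110 catalytic subunits and recruits them to phosphorylated receptors. AXIN1 encodes the scaffold of the β-catenin destruction complex, on which GSK3 and casein kinase 1 phosphorylate β-catenin so that it is degraded, until a Wnt signal interrupts the process. EFNA4 encodes ephrin-A4, a membrane-anchored ligand of Eph receptor tyrosine kinases, which carry contact signals between neighbouring cells. FBXO34 encodes an F-box protein, a family whose members bind SKP1 and bring substrates to the SCF ubiquitin ligase. CYC065 inhibits CDK9 and CDK2. CDK9 phosphorylates RNA polymerase II and thereby releases it from its pause near the start of genes.

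Total read numbers are unknown, because FPKM do not hold them. The low values of each library gave its depth relative to the deepest library, and this was 0.470 to 1 in DMSO and 0.291 to 0.551 with CYC065. Between 40.6% and 45.8% of all genes were listed at 0 in a library. ERCC spike-ins, synthetic RNAs added by cell number, made up 1.99% to 9.36% of the FPKM in DMSO libraries and 2.70% to 15.2% in CYC065 libraries. In DMSO, their share differed by line, from 1.99% to 2.29% in SH-EP to 8.07% to 9.36% in S62A. Whether RNA per cell or the adding of the spike-ins differed was not tested. Treatments were compared on FPKM scaled to 55 of these spike-ins, and lines on FPKM as deposited. The scaling gives levels per cell only if the spike-ins were added evenly. With spike-in scaling, the median log2 change of all tested genes with CYC065 was lowest in WT (-1.57) and S62A (-1.35), followed by T58A (-1.08), SH-EP (-1.06), and T58A S62A (-0.97). On FPKM as deposited, it was 0.15 in SH-EP and 0.06 to 0.07 in the MYCN lines. The index sequences of all 6 SH-EP libraries recur among the MYCN-line libraries. The labels name no pool or batch, so whether SH-EP and MYCN-line libraries were processed together is unknown. A batch between them, if there was any, could not be told apart from the difference between the lines. In bulk samples, fewer cells that contain a transcript and less of it per cell cannot be told apart either.

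The start regions of the 4 genes are shown because the genes were lowered together and differ in what their promoters hold. All 4 genes matched the RefSeq promoter table (GRCh38), which gives 250 bases before and 50 after a start, with 4 windows for PIK3R1, 2 for FBXO34, and 1 each for AXIN1 and EFNA4. Each window had 1 exact match on its chromosome in GRCh37, the build of the files, and those coordinates are used here. Capitals mark GGGCGG (a GC box), CCAAT, and TGACGTCA (the cAMP response element palindrome), or their reverse complements CCGCCC and ATTGG. The windows, written 5′ to 3′ on the gene's strand, are chr5:67511334-67511633 (plus strand) for PIK3R1, chr16:402674-402973 (minus strand) for AXIN1, chr1:155035966-155036265 (plus strand) for EFNA4, and chr14:55737889-55738188 and chr14:55738622-55738921 (plus strand) for FBXO34.
PIK3R1 window 1: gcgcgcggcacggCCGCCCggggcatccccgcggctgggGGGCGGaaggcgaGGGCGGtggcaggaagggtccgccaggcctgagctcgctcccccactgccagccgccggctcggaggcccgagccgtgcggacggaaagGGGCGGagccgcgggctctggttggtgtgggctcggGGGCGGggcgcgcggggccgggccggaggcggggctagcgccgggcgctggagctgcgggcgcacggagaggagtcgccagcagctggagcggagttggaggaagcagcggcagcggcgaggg
AXIN1: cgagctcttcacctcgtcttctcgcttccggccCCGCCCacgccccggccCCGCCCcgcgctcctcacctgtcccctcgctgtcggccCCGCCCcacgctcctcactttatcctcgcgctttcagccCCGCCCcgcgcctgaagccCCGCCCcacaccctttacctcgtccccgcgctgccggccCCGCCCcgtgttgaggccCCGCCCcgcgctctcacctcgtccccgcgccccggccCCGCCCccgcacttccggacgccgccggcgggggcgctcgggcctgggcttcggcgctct
EFNA4: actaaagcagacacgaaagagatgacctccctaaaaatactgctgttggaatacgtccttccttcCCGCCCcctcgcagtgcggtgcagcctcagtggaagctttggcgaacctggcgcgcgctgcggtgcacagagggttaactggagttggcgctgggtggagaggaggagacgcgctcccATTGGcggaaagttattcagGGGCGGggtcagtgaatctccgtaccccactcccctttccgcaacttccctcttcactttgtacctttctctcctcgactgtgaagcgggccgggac
FBXO34 window 1: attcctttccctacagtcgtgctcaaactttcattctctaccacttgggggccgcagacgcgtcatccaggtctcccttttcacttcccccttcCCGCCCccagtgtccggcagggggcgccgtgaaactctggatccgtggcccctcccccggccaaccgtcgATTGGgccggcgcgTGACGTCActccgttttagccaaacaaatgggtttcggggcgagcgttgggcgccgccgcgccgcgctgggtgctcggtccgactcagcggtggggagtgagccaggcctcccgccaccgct
FBXO34 window 2: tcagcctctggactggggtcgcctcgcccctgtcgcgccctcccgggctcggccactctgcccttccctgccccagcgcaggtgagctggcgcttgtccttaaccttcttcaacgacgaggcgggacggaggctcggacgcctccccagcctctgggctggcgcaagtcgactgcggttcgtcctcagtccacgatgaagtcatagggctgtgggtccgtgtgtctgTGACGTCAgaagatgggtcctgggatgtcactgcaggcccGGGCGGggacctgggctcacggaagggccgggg
GC boxes on either strand numbered 5 in window 1 of PIK3R1, 8 in AXIN1, 2 in EFNA4, and 1 in each FBXO34 window. Window 2 of PIK3R1 (not shown) held GC boxes at positions -29 and -17, and its windows 3 and 4 (not shown) held none. At least 1 GC box was found in 45.0% of all 35116 promoter windows and in 66.2% of those of tested genes. In AXIN1, all 8 read CCGCCC on the gene's strand, between positions -217 and -10. The GC content was 80.0% for PIK3R1 window 1, 78.0% for AXIN1, 58.3% for EFNA4, 66.0% and 68.0% for FBXO34, and 58.7% at the median of all windows. Windows 2, 3, and 4 of PIK3R1 were at 62.3%, 40.0%, and 42.3%. Both FBXO34 windows hold TGACGTCA, 72 and 23 bases before the start, a motif found in 1.85% of all windows and 2.91% of the 12631 windows of tested genes. CCAAT was found, on the reverse strand, in EFNA4, FBXO34 window 1, and PIK3R1 window 3 (not shown), and in 34.6% of all windows. Of the other motifs searched on both strands, none was found in any of the 8 windows. These were the E-box CACGTG (7.26% of all windows), the TATA box TATAAA (11.5%, and 5.91% of those of tested genes), the AP-1 motif TGACTCA (4.95%), and the E2F motifs TTTCGCGC (0.515%) and TTTGGCGC (0.652%).

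PIK3R1 (chr5:67511568-67597649 of GRCh37, plus strand) had overlapping FPKM as deposited in neighbouring lines in DMSO, and with CYC065 its mean was 4.22% to 6.56% of that level. In SH-EP, the 3 DMSO libraries were at 7.77, 7.01, and 7.82 FPKM and the 3 CYC065 libraries at 0.205, 0.458, and 0.470 FPKM. The 2 groups did not overlap. On the spike-in scale, the log2 change in SH-EP was -5.38 (SE 0.25, adjusted p = 1.21e-15 by limma, Benjamini-Hochberg over all tested genes), and as deposited it was -4.05. In the WT line, PIK3R1 was at 8.38, 7.56, and 8.53 FPKM in DMSO and at 0.267, 0.483, and 0.501 FPKM with CYC065. In T58A, the values were 7.44, 7.0, and 8.55 FPKM in DMSO and 0.371, 0.354, and 0.246 FPKM with CYC065. Every treated library of these lines thus lay under 1 FPKM. In S62A, they were 8.50, 8.0, and 8.18 FPKM in DMSO and 0.263, 0.444, and 0.385 FPKM with CYC065. In T58A S62A, they were 6.69, 7.32, and 6.72 FPKM in DMSO and 0.435, 0.513, and 0.411 FPKM with CYC065. Over the 15 DMSO libraries, the coefficient of variation was 8.53%, the smallest of the 4 genes. By mean level in DMSO, the order was S62A (8.23 ± 0.258, SD, n = 3), WT (8.16 ± 0.519), T58A (7.66 ± 0.801), SH-EP (7.53 ± 0.457), and T58A S62A (6.91 ± 0.353), and each neighbouring pair overlapped. On the spike-in scale, the DMSO mean was 24 ± 2.30 in SH-EP and between 6.79 ± 0.812 (S62A) and 12.9 ± 3.75 (T58A) in the MYCN lines. As deposited, the treated lines, from T58A S62A (0.453 ± 0.0531 FPKM) down to T58A (0.323 ± 0.0677 FPKM), also overlapped with their neighbours.

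AXIN1 (chr16:337440-402723, minus strand) was lower in SH-EP in DMSO than in each MYCN line as deposited. In SH-EP, it was at 5.34, 5.21, and 5.82 FPKM in DMSO and at 0.323, 0.168, and 0.219 FPKM with CYC065. The log2 change in SH-EP was -5.42 on the spike-in scale (SE 0.29, limma adjusted p = 8.52e-15) and -4.07 as deposited. In WT, it was at 10.7, 11.0, and 8.52 FPKM in DMSO and at 0.425, 0.390, and 0.675 FPKM with CYC065. As deposited, both WT means lay above those of SH-EP. With spike-in scaling, both lay below, at 13.7 ± 3.90 against 17.4 ± 1.43 in DMSO and 0.201 ± 0.0362 against 0.319 ± 0.121 with CYC065. In T58A, the values were 11.0, 8.82, and 8.45 FPKM in DMSO and 0.471, 0.596, and 0.843 FPKM with CYC065. In S62A, they were 9.82, 7.89, and 10.3 FPKM in DMSO and 0.572, 0.706, and 0.799 FPKM with CYC065. In T58A S62A, they were 9.87, 7.24, and 10.9 FPKM in DMSO and 0.311, 0.698, and 0.806 FPKM with CYC065, and its lowest treated library lay within the range of SH-EP. By mean level in DMSO, the order was WT (10.1 ± 1.35, SD, n = 3), T58A (9.41 ± 1.37), S62A (9.35 ± 1.29), T58A S62A (9.32 ± 1.87), and SH-EP (5.46 ± 0.322). The first 4 overlapped with their neighbours, and SH-EP lay below the lowest T58A S62A library. As deposited, the treated order was S62A, T58A, T58A S62A, WT (0.497 ± 0.156 FPKM), and SH-EP (0.237 ± 0.0787 FPKM). Only the last pair did not overlap, and the share of tested genes for which this held was not computed. With spike-in scaling, the treated order changed to T58A S62A (0.538), T58A (0.459), SH-EP (0.319), WT (0.201), and S62A (0.201).

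EFNA4 (chr1:155036213-155042029, plus strand) was the most variable of the 4 genes and the only one listed at 0 in treated libraries. In SH-EP, it was at 7.47, 7.29, and 6.57 FPKM in DMSO, and with CYC065 it was at 0.439 FPKM in 1 library and listed at 0 in 2. In WT, it was at 3.4, 7.04, and 5.46 FPKM in DMSO and at 0.146, 0.217, and 0 FPKM with CYC065. In T58A, it was at 10.0, 4.86, and 5.49 FPKM in DMSO and listed at 0 in all 3 CYC065 libraries, so no fold change is given there. In all, 10 of 15 treated libraries were listed at 0. In S62A, the values were 5.19, 3.53, and 4.32 FPKM in DMSO and 0.223, 0, and 0 FPKM with CYC065. In T58A S62A, they were 5.84, 3.6, and 5.15 FPKM in DMSO and 0, 0.406, and 0 FPKM with CYC065. Without read counts, a listed 0 may also mean that the estimate failed. None of 10 genes that every cell uses, such as ACTB and TBP, was listed at 0 in any library. Their lowest value was 3.09 FPKM (TBP), so they cannot show whether the estimate failed for EFNA4. Of the 5 treated values above 0, the 3 smallest were multiplied by relative depth and their mean was taken as 1 step, of which they made up 0.999, 1.00, and 1.00. The other 2 treated values above 0 were 2.01 and 2.53 steps, and the DMSO libraries lay between 21.0 and 79.3 steps. The treated level of EFNA4 is thus at the lower limit of what these libraries resolve. In SH-EP, the fitted log2 change was -6.87 (SE 0.58, limma adjusted p = 4.86e-11), which depends on the 0.1 FPKM added before taking logarithms. It was -4.33 with 1 FPKM added and -9.15 with 0.01 FPKM added, and the adjusted p stayed under the threshold of 0.05 at both. By mean level in DMSO, the order was SH-EP (7.11 ± 0.477, SD, n = 3), T58A (6.79 ± 2.81), WT (5.30 ± 1.82), T58A S62A (4.86 ± 1.15), and S62A (4.35 ± 0.828), with each neighbouring pair overlapping. In treated cells, the ranges of all lines included 0.

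FBXO34 (chr14:55738062-55836771, plus strand) had the highest mean treated level of the 4 genes in FPKM. In SH-EP, it was at 8.11, 8.78, and 8.33 FPKM in DMSO and at 0.587, 0.643, and 0.560 FPKM with CYC065. The log2 change in SH-EP was -4.90 on the spike-in scale (SE 0.30, limma adjusted p = 8.02e-14) and -3.61 as deposited. In WT, it was at 9.23, 8.87, and 8.84 FPKM in DMSO and at 0.691, 0.236, and 0.738 FPKM with CYC065. In T58A, the values were 10.4, 8.78, and 9.45 FPKM in DMSO and 0.760, 0.919, and 0.238 FPKM with CYC065. In both lines, 1 treated library lay well below the other 2. In S62A, they were 9.01, 9.02, and 10.1 FPKM in DMSO and 0.424, 0.791, and 1.05 FPKM with CYC065. In T58A S62A, they were 9.26, 12.3, and 9.05 FPKM in DMSO and 0.904, 0.480, and 0.683 FPKM with CYC065. By mean level in DMSO, the order was T58A S62A (10.2 ± 1.84, SD, n = 3), T58A (9.53 ± 0.790), S62A (9.39 ± 0.650), WT (8.98 ± 0.217), and SH-EP (8.41 ± 0.341), and all neighbours overlapped except WT and SH-EP. As deposited, the treated means lay between 0.555 ± 0.277 FPKM in WT and 0.756 ± 0.315 FPKM in S62A, and all neighbours in that order overlapped. With spike-in scaling, they lay between 0.217 in S62A and 0.805 in SH-EP. The end of FBXO34, from position 55833109 to 55836771, overlaps ATG14, an autophagy gene on the opposite strand (chr14:55833109-55878548). The libraries were strand-specific.

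**Figure D1:**
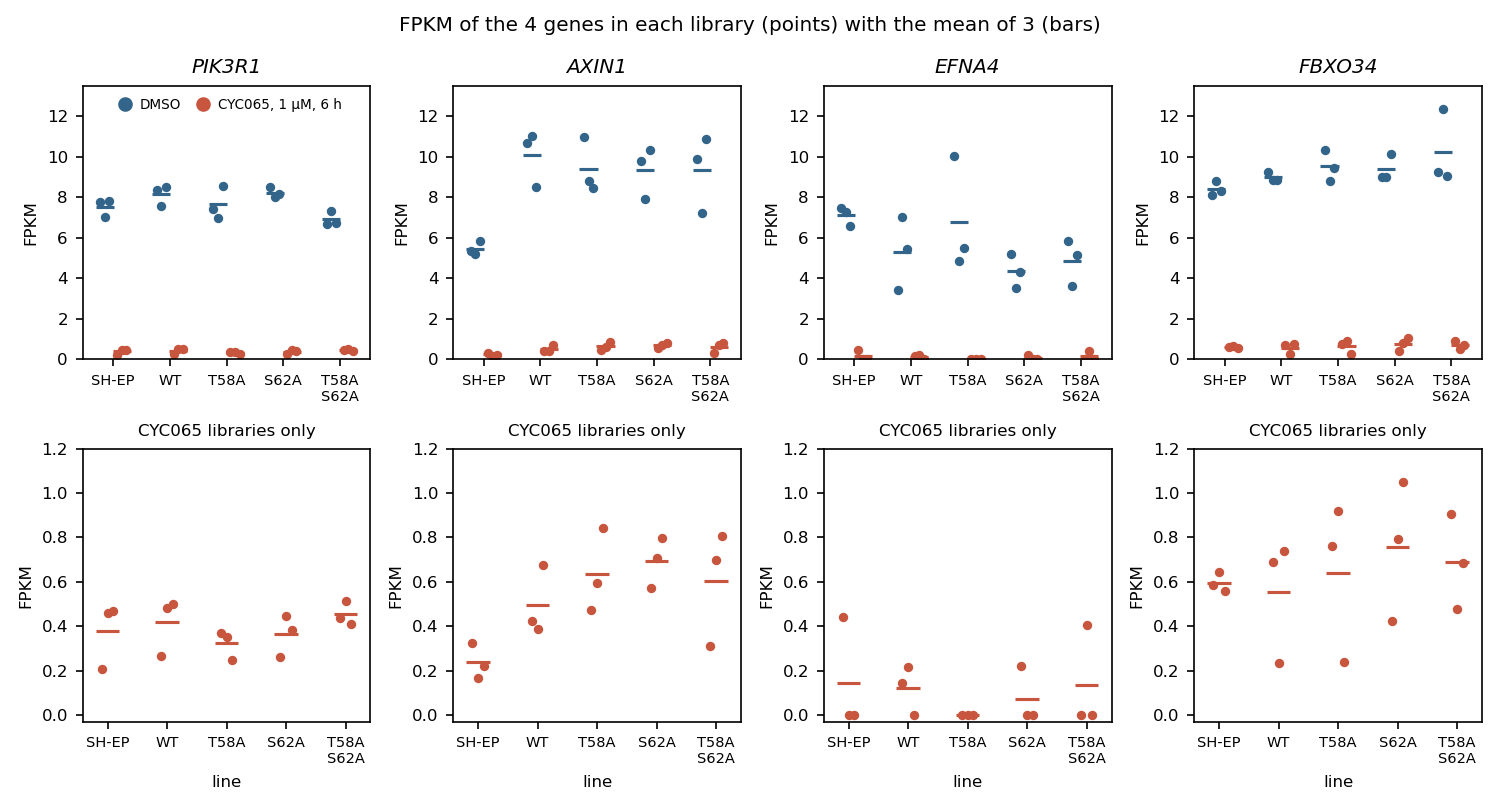
FPKM as deposited of each gene in each of the 30 libraries, by line, with DMSO in blue and CYC065 in red. Points are libraries and bars are means of 3. The lower panels show only the CYC065 libraries, on an axis that ends at 1.2 FPKM. No treated library overlaps a DMSO library for any of the 4 genes, and AXIN1 in DMSO is lowest in SH-EP.

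All 4 genes were lower with CYC065 in parental SH-EP cells, where they had not been chosen. Of all 11575 tested genes, 75.7% were past the threshold and lower in this comparison on the spike-in scale, and 33.5% as deposited, so passing the threshold is by itself the usual outcome. The 3 treated SH-EP libraries lay below the 3 DMSO libraries for all 4 genes, as they did for 35.5% of tested genes as deposited and 86.8% on the spike-in scale. The size of the fall placed the 4 genes near the lower end of the distribution. In SH-EP, 14 tested genes had a larger fitted fall than EFNA4, 47 than AXIN1, 49 than PIK3R1, and 77 than FBXO34. As deposited, these numbers were 16, 48, 50, and 75. The 5th percentile of the change over all tested genes in SH-EP was -3.51 on the spike-in scale. As a share of the DMSO mean as deposited, the treated SH-EP mean was 5.01% for PIK3R1, 4.34% for AXIN1, and 7.10% for FBXO34. For EFNA4 it was 2.06%, from 1 library above 0.

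In the MYCN lines, the same quantity describes the choice itself. The treated mean was 4.22% to 6.56% of the DMSO mean for PIK3R1, 4.93% to 7.41% for AXIN1, and 6.18% to 8.05% for FBXO34. For EFNA4, it was 1.71% to 2.78% in the 3 lines not listed at 0 throughout. On the spike-in scale, the log2 changes of PIK3R1 lay between -5.35 in WT and -4.69 in T58A S62A (SE 0.25). Those of AXIN1 lay between -5.49 in WT and -4.69 in S62A (SE 0.29), and those of FBXO34 between -5.28 in WT and -4.66 in S62A (SE 0.30). Over the 15 treated and 15 DMSO libraries together, none of the 4 genes overlapped, as for 15.3% of tested genes. Of the tested genes, the share past the threshold and lower was 93.7% in WT, 90.2% in S62A, 84.2% in T58A, and 76.3% in T58A S62A. Ranked by their smallest fall over the 4 lines, among 8561 genes past the threshold and lower in all of them, EFNA4 had rank 2 (-4.93), AXIN1 rank 3 (-4.69), PIK3R1 rank 4 (-4.69), and FBXO34 rank 5 (-4.66). OSGIN1, an oxidative stress-induced growth inhibitor, had rank 1 (-5.14) and is not among the 4. Just outside were FAM83G (-4.64), the tumor necrosis factor receptor TNFRSF1A (-4.62), and DUSP10, a phosphatase of stress-activated MAP kinases (-4.42). The gap between FBXO34 and FAM83G is far smaller than the standard error of either. With 1 FPKM added in place of 0.1 on the spike-in scale, AXIN1 ranked 55, FBXO34 57, PIK3R1 63, and EFNA4 484. With 1 FPKM added to FPKM as deposited, they ranked 6, 8, 12, and 23 in the same order. With 0.01 FPKM added on the spike-in scale, they ranked 4, 6, 7, and 1. Membership thus depends on how near-zero levels are treated.

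**Figure D2:**
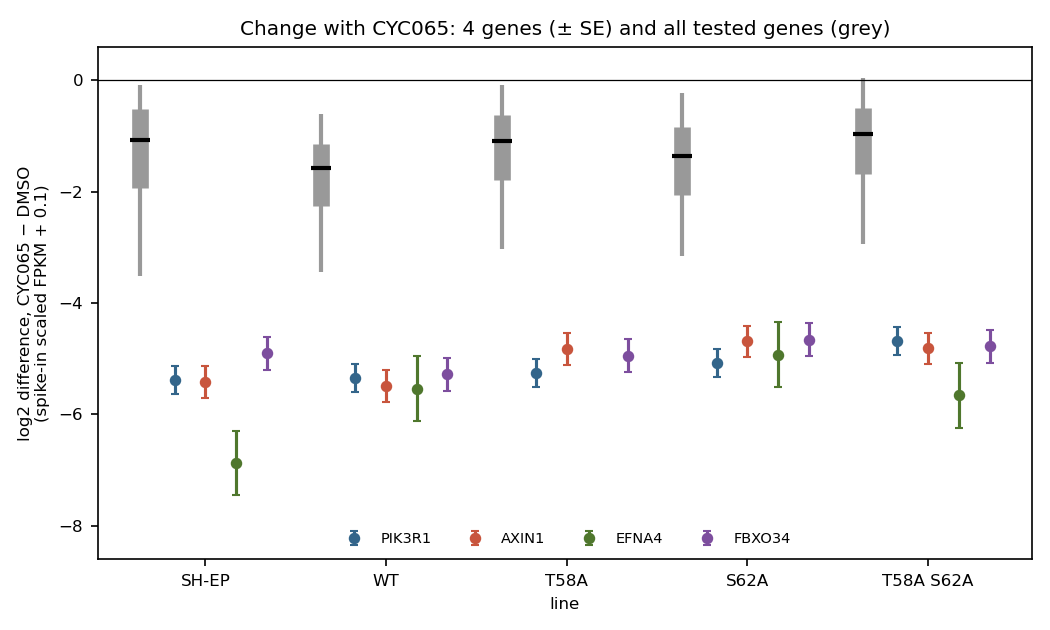
Log2 difference between CYC065 and DMSO on spike-in scaled FPKM with 0.1 added, for each gene in each line. Points are fitted differences with standard errors. Grey bars show all 11575 tested genes (thick, middle 50%; thin, 5th to 95th percentile; black line, median). EFNA4 in T58A is left out because it is listed at 0 in all treated libraries. The 4 genes lie below the 5th percentile in every line where they are drawn.

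In DMSO, the MYCN lines were set beside SH-EP. Because the DMSO libraries of the MYCN lines entered the choice, no test is given. As deposited, AXIN1 was higher than in SH-EP on the log2 scale by 0.87 (WT), 0.77 (T58A), 0.76 (S62A), and 0.74 (T58A S62A), with an SE of 0.25. All 12 MYCN-line libraries lay above the 3 SH-EP libraries, as they did for 21.8% of tested genes. The same held for FBXO34, although its highest SH-EP library and lowest MYCN-line library were both at 8.78 FPKM. With spike-in scaling, the 4 values turned to -0.38, -0.17, -1.17, and -0.08. The median of all tested genes stood at -1.16, -0.88, -1.86, and -0.75 on that scale, so AXIN1 lay 0.68 to 0.79 above the median on both scales. FBXO34 differed from SH-EP by 0.09 to 0.26 as deposited (SE 0.34), less than 1 standard error, and by -1.78 to -0.56 with spike-in scaling. PIK3R1 differed from SH-EP by -0.12 to 0.13 as deposited (SE 0.21) and by -1.81 to -0.93 with spike-in scaling. EFNA4 was at -0.71 to -0.14 as deposited (SE 0.62) and at -2.64 to -1.09 with spike-in scaling, and its deposited SH-EP values lay within the range of the T58A libraries.

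**Figure D3:**
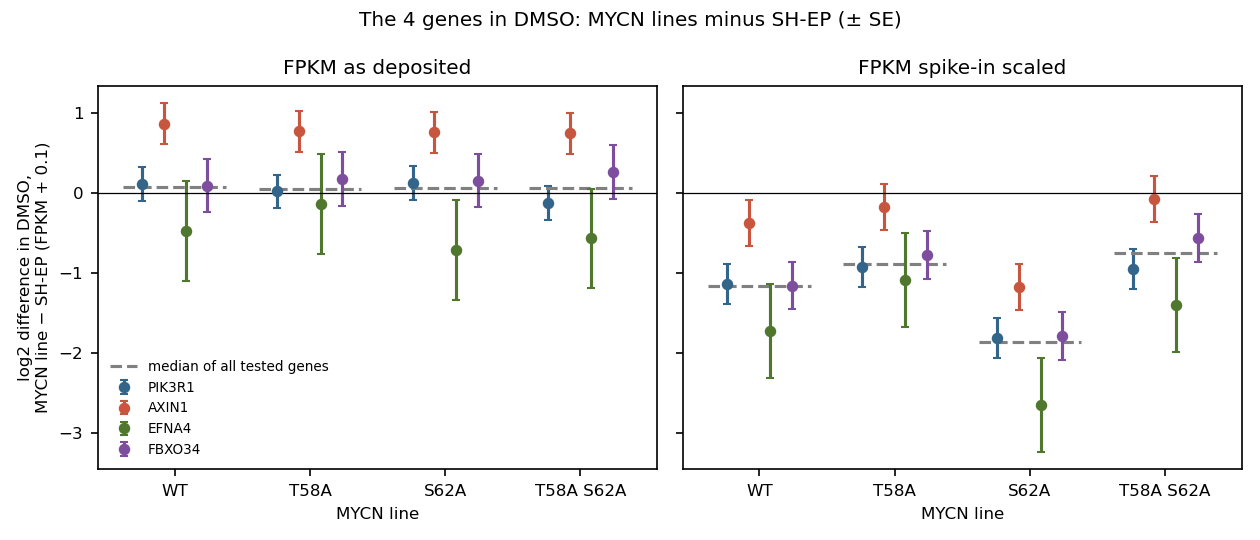
Log2 difference between each MYCN line and SH-EP in DMSO, on FPKM as deposited (left) and spike-in scaled (right), with 0.1 added. Points are fitted differences with standard errors, and dashed lines are medians of all tested genes. AXIN1 lies above the median in all 4 lines on both scales, but above 0 only as deposited.

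The PI3K pathway list held 31 genes other than PIK3R1, of which 25 were tested. On the spike-in scale, 20 of the 25 (80.0%) were past the threshold and lower with CYC065 in all 5 lines, beside 69.4% of all tested genes. As deposited, they were 9 of 25, beside 24.4%. The median change of the list in SH-EP was -1.70, beside -1.06 for all tested genes. The 2 other p85-type subunits differed. PIK3R3, which encodes p55γ, was at 4.0 ± 0.203 FPKM in SH-EP in DMSO and 1.13 ± 0.170 with CYC065 (SD, n = 3), a log2 change of -3.0 (limma adjusted p = 2.35e-11). PIK3R2, which encodes p85β, was at 26.6 ± 1.48 and 50.6 ± 1.17 FPKM, a change of -0.32 on the spike-in scale (limma adjusted p = 0.117) that turned to 0.93 as deposited. In DMSO, PIK3R2 was thus the more abundant regulatory transcript in SH-EP, at 26.6 FPKM against 7.53 FPKM for PIK3R1. The catalytic subunits PIK3CA (p110α) and PIK3CB (p110β) fell by 1.76 and 2.28 on the log2 scale in SH-EP (limma adjusted p = 6.55e-09 and 3.55e-12). PIK3CD was under 1 FPKM and was not tested.

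By mean change over the MYCN lines, the largest falls in the PI3K list were those of PHLPP2, a phosphatase of AKT, PIK3R3, and FOXO1, a transcription factor restrained by AKT. In SH-EP, PHLPP2 fell by 3.67 and FOXO1 by 2.32 (limma adjusted p = 8.27e-13 and 1.66e-08). The smallest falls were those of RHEB, the GTPase that activates mTORC1, FOXO4, and the adaptor GAB2. In SH-EP, RHEB fell by 0.50 (limma adjusted p = 0.0243) and FOXO4 by 0.70 (0.0117), and GAB2 changed by 0.12 (0.696). As deposited, RHEB and FOXO4 turned positive. In DMSO, 3 of the 25 were higher than SH-EP in all 4 MYCN lines and 5 lower, as deposited, beside 19.2% and 13.4% of all tested genes. PIK3CB was higher (mean log2 difference 0.57), and FOXO1 was lower (-0.90).

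The Wnt/β-catenin list held 45 genes other than AXIN1, of which 32 were tested. With CYC065, 28 (87.5%) were past the threshold and lower in all 5 lines on the spike-in scale and 16 as deposited, beside 69.4% and 24.4% of all tested genes. The median change in SH-EP was -1.78. The paralog AXIN2, a negative feedback target of Wnt signalling, had a mean under 1 FPKM over all libraries and was not tested. In SH-EP it was at 1.13, 1.01, and 0.820 FPKM in DMSO and at 0.421, 0.839, and 0.365 FPKM with CYC065. The 2 groups overlapped as deposited. On the spike-in scale they did not, with the lowest DMSO library at 2.64 and the highest CYC065 library at 1.21. By mean change over the MYCN lines, the largest falls were those of ZNRF3, a ubiquitin ligase that removes Frizzled receptors, RNF146, a ligase that degrades axin after its ADP-ribosylation, and the casein kinase CSNK1D. In SH-EP, they fell by 3.25, 3.75, and 3.30 (limma adjusted p = 1.56e-10, 6.05e-15, and 4.49e-14). At the other end of the list were SIAH1, a ubiquitin ligase, the co-receptor LRP5, and the receptor FZD6. SIAH1 changed by -0.58 in SH-EP and by 0.05 on average in the MYCN lines (limma adjusted p = 0.00303 and 0.552), and LRP5 by -0.13 in SH-EP (limma adjusted p = 0.577). FZD6 fell by 0.85 in SH-EP, and all 3 were positive as deposited. In DMSO, 8 of the 32 were higher than SH-EP in all 4 MYCN lines and 2 lower, as deposited, beside 19.2% and 13.4% of all tested genes. LGR5, the R-spondin receptor, and FZD3 were among the former (mean log2 differences 2.09 and 1.63), and FZD2 and FZD7 were the latter (-1.71 and -1.20).

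Of 22 ephrins, Eph receptors, and ADAM10 other than EFNA4, 10 were tested. With CYC065, 7 (70.0%) were past the threshold and lower in all 5 lines on the spike-in scale and 3 as deposited, and the median change in SH-EP was -1.02. These are near the 69.4% and 24.4% and the median of -1.06 of all tested genes. EFNA1, which lies downstream of EFNA4 with EFNA3 between them, was at 5.76 ± 0.783 FPKM in SH-EP in DMSO and 1.87 ± 0.322 with CYC065 (SD, n = 3), a change of -2.83 (limma adjusted p = 3.11e-11). EFNA5 changed by -2.29 (limma adjusted p = 7.71e-09). EFNA3, at 1.58 ± 0.174 FPKM in SH-EP in DMSO, and EFNA2, listed at 0 in the same libraries, were not tested. By the same mean, the largest fall was that of EFNB2, a transmembrane ephrin, with -4.54 in SH-EP (limma adjusted p = 1.54e-15). The receptor EPHB4 fell by 2.38 in SH-EP (limma adjusted p = 5.66e-09). EFNB3 changed by -0.24 in SH-EP (limma adjusted p = 0.405), EPHA2 fell by 0.56 (0.0158), and EPHB2 fell by 0.46 (0.0471), and all 3 turned positive as deposited. In DMSO, 3 of the 10 were higher than SH-EP in all 4 MYCN lines, namely EPHB6, EPHB4, and EFNA5 (mean log2 differences 1.10, 0.88, and 0.62). The 4 lower were EFNB3, EPHB2, EFNB2, and EFNB1 (-1.81, -1.76, -0.81, and -0.69). Of all tested genes, 19.2% were higher and 13.4% lower in this way. Without SH-EP DMSO library a, or without library c, the higher genes numbered 1.

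The list of F-box proteins and the SCF core held 69 genes other than FBXO34, of which 51 were tested. With CYC065, 45 (88.2%) were past the threshold and lower in all 5 lines on the spike-in scale and 22 (43.1%) as deposited, beside 69.4% and 24.4% of all tested genes, and the median change in SH-EP was -1.64. FBXO46, a related F-box gene, was at 3.57 ± 0.327 FPKM in SH-EP in DMSO and 0.859 ± 0.223 with CYC065 (SD, n = 3), a change of -3.22 (limma adjusted p = 4.11e-11). Over the MYCN lines, the falls of CCNF, which encodes cyclin F, and FBXL5, the iron-sensing F-box protein, were among the largest. In SH-EP, they fell by 4.65 and 3.32 (limma adjusted p = 2.73e-14 and 9.69e-13). FBXW7, which recognises phosphorylated MYC and cyclin E, changed by 0.21 in SH-EP (limma adjusted p = 0.408) and by 0.47 on average in the MYCN lines. Its change in those lines ranged from -0.24 in WT (limma adjusted p = 0.313) to 1.18 in T58A S62A (5.10e-05). SKP1, the adaptor of the ligase, changed by -0.31 (limma adjusted p = 0.119) and FBXL17 by -0.34 (0.154) in SH-EP, and both turned positive as deposited. In DMSO, 5 of the 51 (9.80%) were higher than SH-EP in all 4 MYCN lines and 3 (5.88%) lower, as deposited, below the 19.2% and 13.4% of all tested genes. FBXO41, FBXO22, and FBXO31 led the former (mean log2 differences 0.76, 0.54, and 0.54), and FBXL7 had the largest mean decrease (-1.15).

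**Figure D4:**
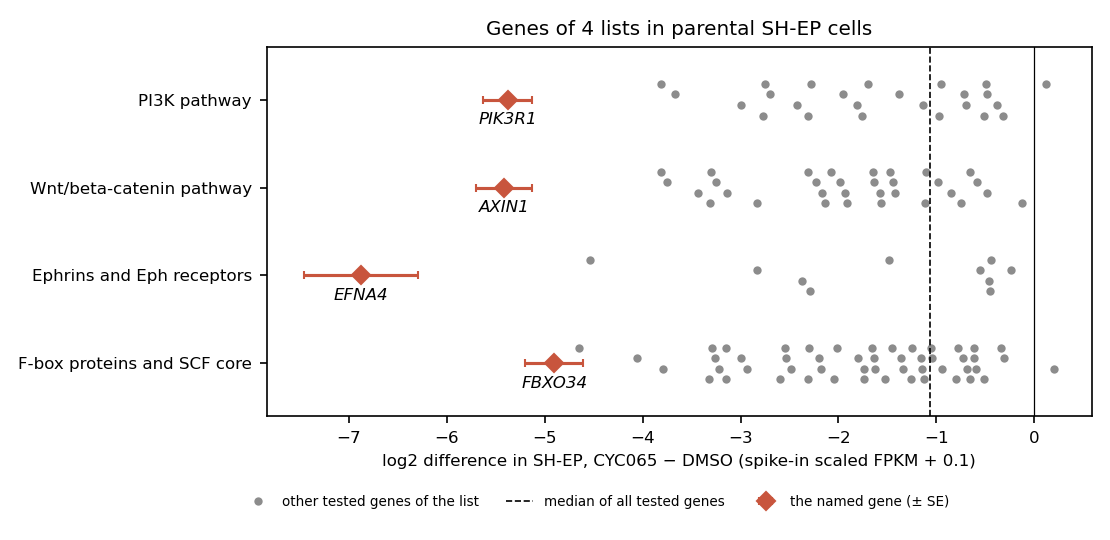
Log2 difference between CYC065 and DMSO in parental SH-EP cells on spike-in scaled FPKM with 0.1 added. Grey points are the other tested genes of each list, red diamonds the 4 genes with standard errors, and the dashed line is the median of all tested genes. Each of the 4 genes lies to the left of every other tested gene of its list, with CCNF (-4.65) nearest to FBXO34 (-4.90).

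Of 8 genes in a context list, 4 were past the threshold and lower in all 5 lines on the spike-in scale, beside 69.4% of all tested genes. As deposited, 0 were by limma, and 0 at an unadjusted p under 0.05. MYCN is 1 of the 8 and could not be called lower in all 5 lines, because it is listed at 0 in SH-EP. On the spike-in scale, MYCN changed by -1.33 (WT), -0.80 (T58A), -1.24 (S62A), and -0.59 (T58A S62A). These changes were past the threshold (limma adjusted p from 4.35e-06 to 0.0188), and all turned positive as deposited (0.21 to 0.48). CDK9 itself, at 18.1 ± 1.05 FPKM in SH-EP in DMSO and 11.7 ± 0.583 with CYC065 (SD, n = 3), fell by 1.87 (limma adjusted p = 2.92e-09), CDK2 by 0.67 (0.00262), and MCL1, an antiapoptotic gene, by 0.96 (5.39e-05). CDK2 and MCL1 were positive as deposited (0.58 and 0.29). MYC rose by 0.57 in SH-EP (limma adjusted p = 0.0244) and was higher in all 5 lines, as 0.501% of tested genes were.

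The fitted changes of the tested genomic neighbours in SH-EP were smaller than those of the 4 genes. Of the 2 genes listed on each side, 9 of 16 were tested. MAST4, before PIK3R1 on the same strand, averaged under 1 FPKM and was not tested. In SH-EP it was at 1.39 ± 0.0788 FPKM in DMSO and 0.179 ± 0.0902 FPKM with CYC065 (SD, n = 3). EFNA1 has been given. ADAM15, the gene before EFNA4 on the same strand, changed by -0.16 in SH-EP (SE 0.20, limma adjusted p = 0.469), and MRPL28 and NME4, next to AXIN1, by -0.63 (0.00698) and -0.12 (0.592). ATG14, which overlaps FBXO34, changed by -1.68 (SE 0.19, limma adjusted p = 6.37e-09), DLGAP5 by -1.40 (2.79e-08), and LGALS3 by -0.12 (0.58). SLC30A5 and CCNB1, after PIK3R1, changed by -1.15 (2.80e-06) and -2.36 (4.58e-12). As deposited, ADAM15, MRPL28, NME4, LGALS3, and SLC30A5 were positive. The difference between each gene and its neighbours was not tested.

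**Figure D5:**
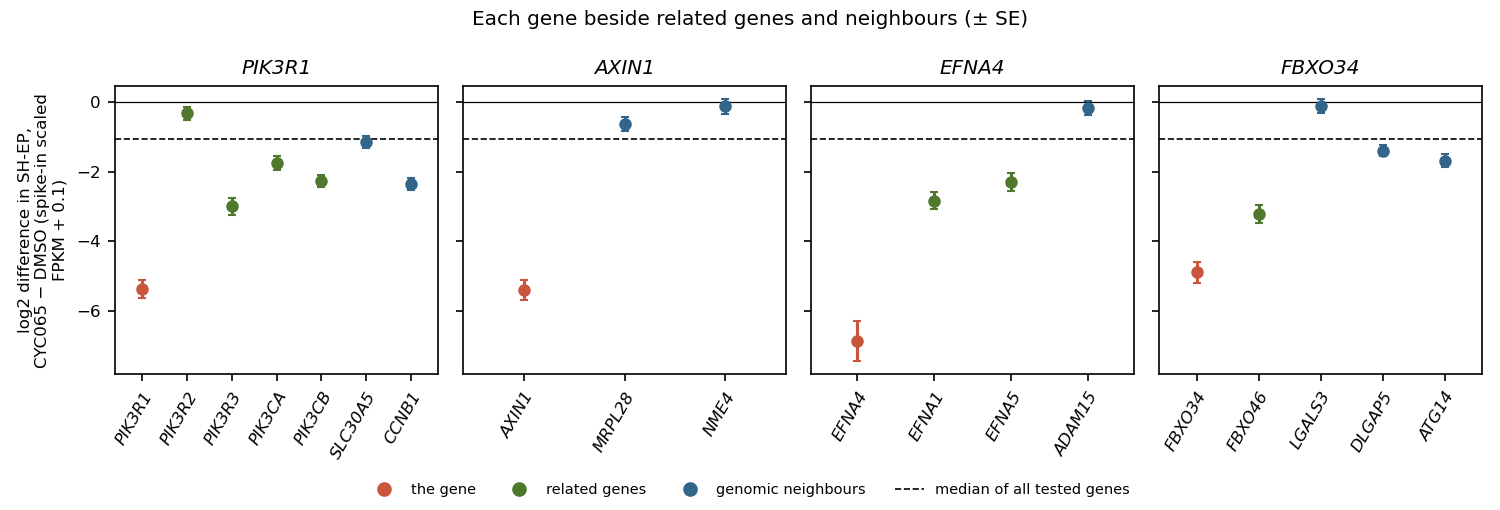
Log2 difference between CYC065 and DMSO in SH-EP on spike-in scaled FPKM with 0.1 added, for each of the 4 genes (red), tested related genes (green), and tested genomic neighbours (blue; EFNA1 is drawn in green). Bars are standard errors and the dashed line is the median of all tested genes. The 4 genes are the lowest point of their panels, and PIK3R2, NME4, ADAM15, and LGALS3 lie nearest to 0.

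The transcripts of the 4 genes differ in length and composition. Among 10060 tested genes with a canonical transcript in GENCODE on GRCh37, the median was 9 exons, 3366 bases, and 47.6% GC. PIK3R1 has 16 exons and 6975 bases at 40.1% GC, and its 3′ UTR of 4220 bases holds 8 copies of the AU-rich pentamer ATTTA. AXIN1 has 11 exons and 3707 bases at 63.5% GC, and no copy in a 3′ UTR of 682 bases. EFNA4 has 4 exons and 1254 bases at 58.2% GC, and no copy in 564 bases. FBXO34 has 2 exons and 3348 bases at 45.6% GC, and 1 copy in 1085 bases, and 1.54% of these genes have fewer exons. The genes span 86.1, 65.3, 5.82, and 98.7 kb, and the median is 33.5 kb.

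The genes whose level was most like that of each of the 4 were named by Pearson's r of log2(FPKM + 0.1) as deposited over all 30 libraries. The points share their treatment, and r mainly reflects the step between DMSO and CYC065. For PIK3R1, they were NFX1, CREB1, TNFRSF1A, HMGXB4, and LIN54 (r from 0.989 to 0.987). For AXIN1, they were CTCF, GJC1, UBE2O, KIF18B, and ZNF142 (r from 0.988 to 0.984), and for FBXO34, RNF111, CREB1, TTC4, ZNF318, and AKAP10 (r from 0.991 to 0.980). For EFNA4, they were RNF25, JMJD1C, SUV39H1, ZNF839, and OTUD7B (r from 0.969 to 0.962). With spike-in scaling, 3 of these 5 stayed among the first 5 for FBXO34, and 0 of 5 for each of the other genes. Within the 15 DMSO libraries, r between pairs of the 4 genes ranged from -0.32 to 0.29, and within the 15 CYC065 libraries from -0.43 to 0.18.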

How the data were processed

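RNA-Seq of 30 SH-EP libraries was analysed from 1 table of the series, whose columns give line and treatment. Columns of other samples numbered 0. According to the labels and the study's methods, ERCC RNAs were added in proportion to cell number and poly(A) RNA went into strand-specific libraries. The authors mapped reads with HISAT to hg19 (GRCh37), and the deposited FPKM are from Cufflinks. These FPKM carry no spike-in scaling, and the table holds 26228 genes and 92 spike-ins. The annotation is not given in the sources used here. No 2 libraries were identical, and r within groups was 0.925 to 0.959.

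For the spike-in scale, 1 factor per library equalised the median log2 level of the 55 spike-ins that averaged 1 FPKM or more. Genes that averaged 1 FPKM or more (11575) were fitted by limma 3.58.1 (R 4.3.3; lmFit, eBayes with trend) on log2(FPKM + 0.1), in 1 fit over 10 groups that share 1 estimate of the spread. The threshold was 0.05 on p adjusted by Benjamini-Hochberg. The added 0.1 FPKM shrinks differences of low genes. FPKM hold no counts, so no count test was run and no counting interval is given. On simulated data for the SH-EP comparison with 11575 genes, 167 of 200 changed genes were recovered, and 9 unchanged genes were called.

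The 4 genes and the lists (PI3K pathway, Wnt/β-catenin pathway, ephrins and Eph receptors, F-box proteins and SCF core, CYC065 context) were chosen with earlier results of these data known. Named genes are the 4, up to 3 on each side in the ranking, fixed relatives, the 3 largest rises and falls of each list, the 5 most alike, and 2 neighbours on each side, of which some are not reported here. Alternatives were other pseudocounts, filters, scalings, samples in the fit, and leave-one-out fits. Of the cell type markers, PTPRC, EPCAM, and PECAM1 were under 1 FPKM in every DMSO library.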

Additional observations from a re-analysis of the deposited data

Results flagged for a closer look

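Of 36 named genes other than the 4 whose CYC065 change was compared between SH-EP and the MYCN lines (limma, line by treatment interaction on the spike-in scale), 1 differed past the threshold, with the same sign, in each of the 4 MYCN lines, as did 1.40% of all 11575 tested genes (10.1% as deposited). The 36 genes were partly picked by the size of their change in the MYCN lines. HEXIM1, which encodes an inhibitor of the CDK9 complex P-TEFb, was at 10.7 ± 0.554 FPKM in SH-EP in DMSO and 3.65 ± 0.356 with CYC065 (SD, n = 3). In the WT line it was at 10.3 ± 0.292 and 8.96 ± 1.12 FPKM. Its log2 change was -2.78 in SH-EP, against -1.87 (WT), -1.43 (S62A), -1.36 (T58A), and -1.07 (T58A S62A) in the MYCN lines. The change in the MYCN lines minus that in SH-EP was 1.35 on average, with adjusted p from 3.56e-05 in T58A S62A to 0.0273 in WT, and the 4 differences were also past the threshold as deposited. The 4 genes themselves were not tested for this difference, because their changes in the MYCN lines chose them.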

How the results depend on the processing

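The columns carry numbers that differ from the replicate numbers of the labels, and nothing says that they mark a shared culture or batch. Libraries with the same number did not deviate together between DMSO and CYC065 within a line (r from -0.07 to 0.07 over 15 pairs). The numbers were therefore not used as a pairing in the main fit. This cannot show how the libraries were handled, and pairing by the replicate numbers of the labels could not be examined. A fit with the number as a replicate block, chosen after seeing the data, left all 4 genes past the threshold in SH-EP and gave 104 and 36 listed genes in place of 102 and 35. In SH-EP, all 4 genes were past the threshold and lower in each of 13 alternatives, leave-one-out fits included (4 genes in each), with adjusted p from 2.12e-16 to 3.31e-04. A fit of the SH-EP libraries alone was among them. The highest limma adjusted p was 1.36e-05 for PIK3R1, 8.81e-06 for AXIN1, 3.31e-04 for EFNA4, and 5.70e-06 for FBXO34. At a filter of 5 FPKM, 0 of the 4 genes were among the 8165 genes left, so that filter gave no value for them. In the MYCN lines, the median over the 4 genes of the mean log2 change (EFNA4 without T58A) was -5.02. It was -3.28 with 1 FPKM added, -5.49 with 0.01 FPKM added, -3.91 as deposited, -3.74 with libraries centred on their medians, and -5.07 to -4.98 with 1 library left out. For MYCN lines against SH-EP in DMSO, the median of the 4 genes was 0.10 as deposited (0.08 to 0.12 with 1 library left out) and -1.14 with spike-in scaling. On that scale, AXIN1 turned from 0.78 to -0.45 and FBXO34 from 0.17 to -1.07, with the median of all tested genes lower too. Of the listed genes, 102 were lower with CYC065 in all 5 lines, 64 at a filter of 5 FPKM (fewer genes tested), 49 as deposited, 44 with centred libraries, and 93 to 105 with 1 library left out. In DMSO, 35 listed genes differed from SH-EP with 1 sign in each of the 4 MYCN lines, 22 at a filter of 5 FPKM, 86 with spike-in scaling (1 higher and 85 lower, against 20 and 15), and 32 to 36 with 1 library left out. For the genes most like each of the 4, spike-in scaling kept 3 of 20. Relative depth was lower with CYC065, and the treated levels lie where it limits precision most, above all for EFNA4.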
